A study of Homo sapiens with 2 samples.

Results

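The cells described here were the Nalm-6 cells that gave the largest share of their RNA to 6 genes, most of them known for ribosome production: EBNA1BP2, METTL12, PNO1, RRP15, LYAR and SNHG9. Barcodes entered the comparison from 1000 detected genes upward, provided that no more than 10% of their unique molecular identifiers (UMIs, the tags that count captured RNA molecules) fell on mitochondrially encoded genes. The UMIs of the 6 genes were summed in each kept cell and divided by the total UMIs of the cell, and the top 15% of cells within each library were taken. These cells, called members below, numbered 620 of 4137 kept cells, out of 4706 barcodes in all. Of these, 340 of 2267 kept cells came from the ETV6-RUNX1 library and 280 of 1870 from the LUC control library. The remaining 1927 and 1590 kept cells served as the comparison.

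Nalm-6 is a human pre-B acute lymphoblastic leukemia cell line. Cells carrying a Tet-On construct were given 500 ng/ml doxycycline for 24 h, which switched on either the ETV6-RUNX1 fusion, a frequent driver of childhood leukemia, or luciferase (LUC) as the control. Both libraries therefore came from engineered, doxycycline-treated cells, after beads had removed dead cells. Single-cell RNA was counted on the 10x Genomics droplet platform with 1 library per construct.

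Ribosomes are built in the nucleolus. RNA polymerase I transcribes the ribosomal RNA precursor, small nucleolar RNAs and their proteins modify it, and a succession of processing and assembly factors cuts and folds it into the small and the large subunit together with ribosomal proteins. Dividing lymphoblasts invest heavily in this production, and MYC is a well known activator of its genes.

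With 1 library per construct, cells of a library are not replicates, and no significance test was possible. UMIs were summed over the cells of a group and are given as CPM, the counts of a gene per 1000000 UMIs of that group. A log2 ratio compares members with the remaining cells of the same library, and its 95% interval covers counting error only, so it is narrower than the spread between cultures would be. A gene was measured when it reached at least 20 CPM over all kept cells of each library, and it is called higher or lower when it differed at least 1.2-fold with an interval that excluded no difference. The words higher and lower below have that sense for single genes unless values alone are given.

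Members had about the depth of the others. Their median depth was 19687 UMIs, against 19147 UMIs in the remaining cells of the ETV6-RUNX1 library, and 21624.5 UMIs, against 22745 UMIs in the remaining cells of the LUC control library. At a common depth of 8000 UMIs per cell the median was 2032 genes in members and 1972 genes in remaining cells with ETV6-RUNX1, and 2055 and 2026 genes with LUC. The median mitochondrial share was 4.19% in members and 4.57% in remaining cells with ETV6-RUNX1, and 4.0% and 4.40% with LUC. Scrublet called 0 members and 10 remaining cells as doublets in the ETV6-RUNX1 library, and 1 member and 17 remaining cells in the LUC control library. The libraries shared 16 barcodes, of which 7 were kept cells and 0 were members.

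The 6 genes of the rule chose the cells, so their values are a description. The summed share, taken in CPM of the single cell, had a median of 1054 CPM in members and 462 CPM in remaining cells with ETV6-RUNX1, and 1042 CPM in members and 543 CPM in remaining cells with LUC. The lowest member and the highest remaining cell lay side by side, at 882 and 881 CPM with ETV6-RUNX1 and at 907 and 905 CPM with LUC. The threshold cut through a continuous distribution and marked no gap. In counts, a member held a median of 21 UMIs of the 6 genes and a remaining cell 8 with ETV6-RUNX1, and 22 and 12 with LUC. The upper tail was of similar size in both libraries: at the LUC threshold 13.7% of ETV6-RUNX1 cells (95% exact binomial interval 12.3 to 15.2) and 15% of LUC cells (13.4 to 16.7) would have been chosen.

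**Figure D1:**
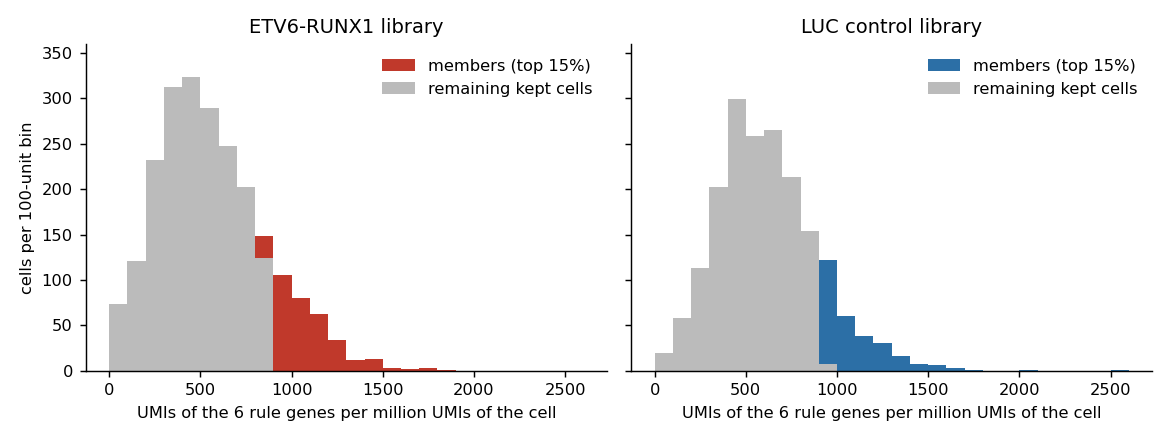
Number of kept cells (vertical axis) by the summed CPM of the 6 rule genes in the cell (horizontal axis, bins of 100 CPM), with members coloured and remaining cells in grey, ETV6-RUNX1 on the left and LUC control on the right. Members form the upper end of 1 continuous distribution in each library, from 882 CPM with ETV6-RUNX1 and 907 CPM with LUC upward.

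EBNA1BP2, a nucleolar factor of large-subunit assembly, had 369 CPM in members and 170 CPM in remaining cells with ETV6-RUNX1, and 362 and 200 CPM with LUC. LYAR, a nucleolar zinc-finger protein of growing cells, had 372 and 159 CPM with ETV6-RUNX1, and 369 and 183 CPM with LUC. These were the most counted of the 6 genes and carried most of the score. PNO1, which helps cut the end of the small-subunit RNA, had 75.5 and 30.9 CPM with ETV6-RUNX1 and 88.5 and 38.7 CPM with LUC. RRP15, a processing factor of the large-subunit RNA, had 92.1 and 41.5 CPM with ETV6-RUNX1 and 101 and 48.8 CPM with LUC. METTL12 is a mitochondrial methyltransferase and no part of the nucleolar machinery, and it had 67.5 and 36.9 CPM with ETV6-RUNX1 and 63.6 and 30.8 CPM with LUC. Its locus overlaps C11orf48 on the opposite strand (169 CPM over the LUC control library). No source used here gives the strand used in counting, and whether counting kept reads of the 2 genes apart was not checked. SNHG9, a host gene of small nucleolar RNA, had 101 and 54.6 CPM with ETV6-RUNX1 and 94.6 and 52.4 CPM with LUC.

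Each rule gene was also looked at in cells chosen by the other 5 genes alone, an alternative added after seeing the data. All 6 remained above the remaining cells in both libraries, at smaller sizes. PNO1 kept the largest log2 ratio, 0.89 (0.72 to 1.05) with ETV6-RUNX1 and 0.66 (0.50 to 0.82) with LUC. SNHG9 kept the smallest, 0.46 (0.33 to 0.60) and 0.37 (0.22 to 0.52). The 6 genes thus varied together from cell to cell beyond the part that choosing on each gene itself brings in.

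Genes outside the rule were then compared. Of 3810 measured genes, 486 (12.8%) were higher in members in both libraries and 195 (5.12%) were lower in both. The split depended on the scaling: TMM factors gave 319 higher and 271 lower, and totals without ribosomal protein and mitochondrially encoded genes gave 298 and 288. In cells thinned to 8000 UMIs before scoring the counts were 245 and 60. Within single libraries, 836 genes (21.9%) were higher and 345 (9.06%) lower with ETV6-RUNX1, and 621 (16.3%) were higher and 298 (7.82%) lower with LUC. No gene was called in opposite directions, and 3100 genes had the same sign in both libraries. The genes higher in both made up 58.1% of those higher with ETV6-RUNX1 and 78.3% of those higher with LUC. The median log2 ratio over all measured genes was 0.075 with ETV6-RUNX1 and 0.050 with LUC, slightly above 0, and list medians below are read beside these values.

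**Figure D2:**
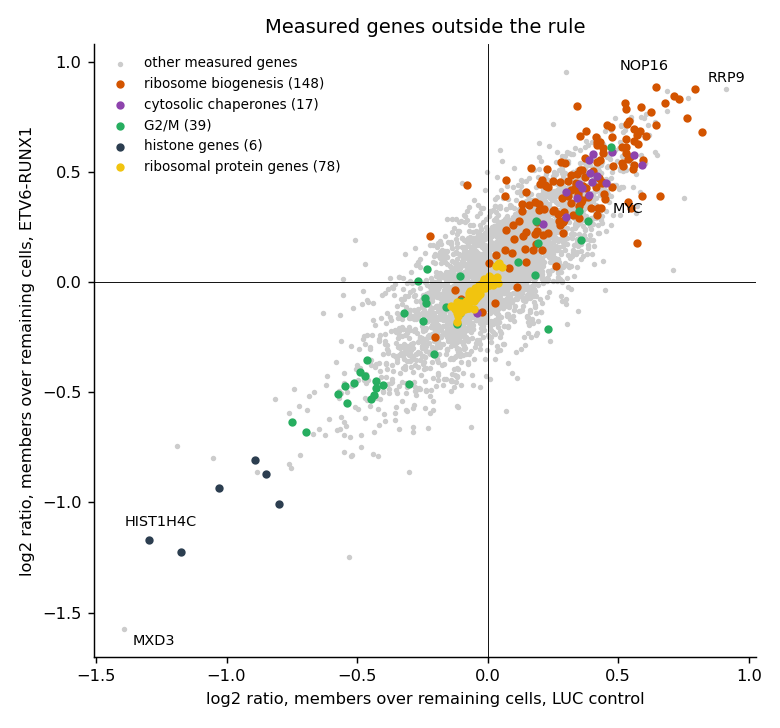
Log2 ratio of members over remaining cells for the 3810 measured genes outside the rule, with ETV6-RUNX1 on the vertical and LUC control on the horizontal axis; colours mark gene lists and grey the other genes. Ribosome biogenesis genes lie to the upper right, 6 histone genes and MXD3 to the lower left, and ribosomal protein genes close to 0.

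The label of the cells was checked on genes the rule did not use. The ribosome biogenesis lists held 192 genes besides the rule genes, of which 190 were in the matrices and 148 were measured. Of these 148, 118 were higher with ETV6-RUNX1, against 21.9% of all measured genes, and 98 with LUC, against 16.3%. In both libraries 95 were higher, against 12.8%, and 0 were lower in either. The median log2 ratio was 0.43 with ETV6-RUNX1 and 0.35 with LUC. All 190 genes in the matrices summed to 20102 CPM in members and 15410 CPM in remaining cells with ETV6-RUNX1, and 20658 and 16573 CPM with LUC. Cell by cell, 314 of 340 members with ETV6-RUNX1 (92.4%) and 262 of 280 with LUC (93.6%) lay above the median remaining cell of their library. Members varied among themselves, with 90% of them between 14574 and 24678 CPM with ETV6-RUNX1 and between 16095 and 25435 CPM with LUC. The word growing in the label could be checked only through transcripts, since cell size and division rate were not measured.

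Polymerase I genes were among those called. CD3EAP, a polymerase I subunit, had 85.7 CPM in members and 51.2 CPM in remaining cells with ETV6-RUNX1, and 106 and 62.2 CPM with LUC, log2 ratios of 0.74 and 0.76. It overlaps ERCC1 on the opposite strand. DDX21, a helicase that links polymerase I transcription to processing, had 493 and 312 CPM with ETV6-RUNX1 and 509 and 335 CPM with LUC. TWISTNB, another polymerase I subunit, had log2 ratios of 0.53 and 0.52. In this list of 11 measured genes 7 were higher in both libraries, against 12.8% of all measured genes. UBTF, which opens the ribosomal DNA repeats for transcription, was not: it had 40.5 and 43.2 CPM with ETV6-RUNX1 and 44.1 and 43.3 CPM with LUC. TTF1, the termination factor, was likewise uncalled, with log2 ratios of -0.13 and -0.02.

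Genes that modify ribosomal RNA, most of them proteins of small nucleolar ribonucleoproteins, were higher in both libraries for 14 of 22 measured. The share over all measured genes was 12.8%. RRP9, which binds the U3 small nucleolar RNA, had 74.8 CPM in members and 40.8 CPM in remaining cells with ETV6-RUNX1, and 83.7 and 48.3 CPM with LUC, log2 ratios of 0.88 (0.73 to 1.02) and 0.79 (0.65 to 0.93). GAR1, of the pseudouridylation particles, had 108 and 60.3 CPM with ETV6-RUNX1 and 115 and 69.9 CPM with LUC. NOP16 stood in this list although its known place is the precursor of the large subunit, and it had 210 and 113 CPM with ETV6-RUNX1 and 209 and 134 CPM with LUC. It overlaps HIGD2A on the opposite strand. Core scaffold proteins followed: NOP58 had log2 ratios of 0.69 and 0.58, DKC1 0.55 and 0.43, and NOP56 0.51 and 0.36. FBL, the methyltransferase of the same particles as NOP56 and NOP58, had 0.28 and 0.19 and was not called in both.

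The small-subunit processome, the large particle that first folds and cuts the precursor, had the highest share of called genes in the ribosome lists. Of 41 measured, 33 were higher in both libraries and 0 lower, against 12.8% and 5.12% of all measured genes. The median log2 ratio of the list was 0.49 with ETV6-RUNX1 and 0.37 with LUC. DCAF13 had 86.3 CPM in members and 50.5 CPM in remaining cells with ETV6-RUNX1, and 93.3 and 60.4 CPM with LUC. UTP14A had 49.7 and 28.9 CPM with ETV6-RUNX1 and 50.9 and 35.3 CPM with LUC. RRS1 stood in this list but is known for its part in 5S particle assembly in the large subunit, and it had 61.8 and 35.2 CPM with ETV6-RUNX1 and 67.5 and 42.1 CPM with LUC.

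Large-subunit assembly factors were higher in both libraries for 30 of 47 measured, against 12.8% of all measured genes, with medians of 0.45 and 0.38. CCDC86, a nucleolar protein, had 62.7 CPM in members and 35.2 CPM in remaining cells with ETV6-RUNX1, and 70.6 and 42.5 CPM with LUC. WDR12, a part of the PeBoW complex with PES1 and BOP1, had 41.4 and 25.8 CPM with ETV6-RUNX1 and 48.3 and 27.3 CPM with LUC. PAK1IP1 had log2 ratios of 0.79 and 0.59, and NOC3L 0.71 and 0.65. The exceptions included GLTSCR2, a nucleolar protein also known as a tumour suppressor, with log2 ratios of -0.25 and -0.20, and the very large ATPase MDN1.

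Among nucleolar proteins and subunits of the RNA exosome, the complex that trims and degrades precursor RNA, 12 of 28 were higher in both libraries. Over all measured genes that share was 12.8%. NPM1, an abundant nucleolar chaperone, had 2791 CPM in members and 2126 CPM in remaining cells with ETV6-RUNX1, and 3019 and 2376 CPM with LUC. NCL, or nucleolin, had 1103 and 757 CPM with ETV6-RUNX1 and 1060 and 792 CPM with LUC. RPP40, of the RNase P and MRP particles, had log2 ratios of 0.67 and 0.57, and EXOSC7, a ring subunit of the exosome, 0.70 and 0.47. EXOSC10, the nuclear exonuclease of the exosome, had 0.21 and -0.22 and was not called in both.

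Host genes of small nucleolar RNAs went the same way. Only 10 of 20 listed host genes were in the matrices under the listed symbols. Of the 9 measured outside the rule, 6 were higher in both libraries, against 12.8% of all measured genes. SNHG12 had 91.1 CPM in members and 54.7 CPM in remaining cells with ETV6-RUNX1, and 84.0 and 57.4 CPM with LUC. SNHG15 had log2 ratios of 0.57 and 0.46. The measured gene with the largest log2 ratio shared by both libraries was RP11-752G15.6, named SNHG21 in RefSeq, with 43.4 and 23.7 CPM with ETV6-RUNX1 and 45.6 and 24.2 CPM with LUC, log2 ratios of 0.88 and 0.91. A second uncharacterised transcript, RP11-386I14.4, had 0.87 and 0.69.

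Ribosomal protein genes did not follow. None of 78 measured was higher or lower in both libraries, against 12.8% and 5.12% of all measured genes. The median log2 ratio was -0.06 with ETV6-RUNX1 and -0.05 with LUC. The 79 in the matrices summed to 420659 CPM in members and 441731 CPM in remaining cells with ETV6-RUNX1, and 408034 and 425243 CPM with LUC. RPS27 had the largest average difference of the 78, with log2 ratios of -0.18 and -0.12. Members thus held more transcripts for making ribosomes and no larger share of transcripts for the ribosome itself. Because ribosomal protein genes take so many of the UMIs, their small decrease weighs on every other ratio: with totals that left out ribosomal protein and mitochondrially encoded genes, the median over the 148 biogenesis genes was 0.36 with ETV6-RUNX1 and 0.29 with LUC.

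Several of these genes carry the sequence CACGTG near their start. CACGTG is the canonical E-box, which reads the same on both strands and is bound by MYC with MAX and by other factors of that class. It was searched in the window of 250 bases before to 50 bases after each RefSeq gene start on GRCh38.p14. Of the 148 measured ribosome biogenesis genes 123 had a window in the table, and 32 of them (26%, exact binomial interval 18.5 to 34.7) held the motif. Among genes higher in both libraries it was 72 of 414 (17.4%), among genes lower in both 10 of 163 (6.13%), among all measured genes 382 of 3210 (11.9%), and among all windows 2030 of 27305 (7.43%). The shares are descriptions of the sequence and say nothing of binding in these cells. The examples shown are a rule gene and the genes among the 12 highest whose motif lies wholly before the gene start. Each is 100 bases long, 5′ to 3′ on the strand of the gene, with the motif in capitals.

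EBNA1BP2: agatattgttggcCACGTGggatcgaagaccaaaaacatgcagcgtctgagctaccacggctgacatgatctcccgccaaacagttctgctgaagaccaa
CD3EAP: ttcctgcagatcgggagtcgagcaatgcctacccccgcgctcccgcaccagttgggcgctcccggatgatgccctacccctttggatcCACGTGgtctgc
CCDC86: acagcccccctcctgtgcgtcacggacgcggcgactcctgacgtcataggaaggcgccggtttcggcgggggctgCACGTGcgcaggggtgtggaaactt

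The EBNA1BP2 stretch is chr1:43172721-43172820 on the minus strand, and its motif begins 237 bases before the gene start. That of CD3EAP, named POLR1G in RefSeq, is chr19:45406544-45406643 on the plus strand, with the motif 12 bases before the start. That of CCDC86 is chr11:60842013-60842112 on the plus strand, with the motif 25 bases before the start. PNO1 of the rule genes and NOC3L of the 12 highest genes held the motif after the start, and in RRP9, also among the 12 highest, it spanned the start. The windows of the rule genes LYAR, RRP15 and METTL12 held no CACGTG, nor did those of RP11-752G15.6, PTRH2, GAR1, WDR12 and NOP16.

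MYC itself had 132 CPM in members and 99.1 CPM in remaining cells with ETV6-RUNX1, and 172 and 129 CPM with LUC. Its log2 ratio was 0.41 (0.31 to 0.52) with ETV6-RUNX1 and 0.42 (0.32 to 0.51) with LUC, the same size in both libraries. MXD3, which pairs with MAX and represses E-box genes, headed the 12 lowest genes. It had 14.6 CPM in members and 43.4 CPM in remaining cells with ETV6-RUNX1, and 13.3 and 35.0 CPM with LUC, log2 ratios of -1.57 (-1.88 to -1.28) and -1.39 (-1.73 to -1.07). MXD3 lies across PRELID1 on the opposite strand (426 CPM over the LUC control library), and whether counting kept reads of the 2 genes apart was not checked. MAX, the shared partner, had 0.14 and -0.05 and MLX 0.03 and 0.06, and neither was called.

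Protein folding genes moved with the biogenesis genes. Of 17 cytosolic chaperones measured, 15 were higher in both libraries and 0 lower, against 12.8% and 5.12% of all measured genes. The list medians were 0.45 and 0.39. HSP90AB1 had 1995 CPM in members and 1414 CPM in remaining cells with ETV6-RUNX1, and 2012 and 1535 CPM with LUC. Subunits of the TRiC chaperonin, which folds actin, tubulin and other new proteins, were called for CCT2, CCT4, CCT5, CCT6A, CCT7, CCT8 and TCP1, with CCT5 at 0.58 and 0.40. The co-chaperones DNAJA1 (0.58 and 0.56) and AHSA1 (0.59 and 0.48) had the largest ratios in the list besides HSPH1 (0.53 and 0.59). DNAJB1, a heat-shock gene, was not called, with 56.0 and 61.7 CPM with ETV6-RUNX1 and 56.8 and 58.4 CPM with LUC.

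Mitochondrial import and matrix chaperone genes were higher in both libraries for 10 of 25. GRPEL1, the exchange factor of the matrix HSP70, had 114 CPM in members and 66.6 CPM in remaining cells with ETV6-RUNX1, and 120 and 74.7 CPM with LUC. HSPE1, the matrix co-chaperonin, had 1504 and 949 CPM with ETV6-RUNX1 and 1619 and 1066 CPM with LUC. HSPE1 overlaps HSPD1 on the opposite strand (728 CPM over the LUC control library). The respiratory chain did not go with them: 4 of 73 nuclear oxidative phosphorylation genes were higher in both libraries, below the 12.8% of all genes, and 0 of 13 mitochondrially encoded genes. PTRH2, a mitochondrial peptidyl-tRNA hydrolase that overlaps CLTC and VMP1 on the opposite strand, was among the 12 highest genes, with 40.5 and 22.7 CPM with ETV6-RUNX1 and 41.0 and 24.1 CPM with LUC.

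Of 22 translation factors measured, 12 were higher in both libraries and 0 lower, against 12.8% and 5.12% of all measured genes. Most of the called genes encode initiation or release factors, such as EIF2S1, the alpha subunit of eIF2, with 103 CPM in members and 64.2 CPM in remaining cells with ETV6-RUNX1, and 102 and 73.5 CPM with LUC. EIF3J had log2 ratios of 0.61 and 0.50, EIF4A1 0.37 and 0.29 and the release factor ETF1 0.50 and 0.33. The classical elongation factors were not called: EEF1A1 had 6469 and 7653 CPM with ETV6-RUNX1 and 6933 and 7660 CPM with LUC, and EEF2 had ratios of -0.12 and -0.08. EEF1E1, despite its symbol a scaffold of the tRNA synthetase complex, had 0.64 and 0.40. Synthetases themselves were higher in both libraries for 3 of 19, RARS, VARS and FARSA, which is near the 12.8% of all measured genes.

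Of 25 nucleotide synthesis genes measured, 8 were higher in both libraries, against 12.8% of all measured genes, and 2 were lower, against 5.12%. The higher genes included PPAT, ATIC and IMPDH1 of purine synthesis, UMPS of pyrimidine synthesis and the nucleotide enzymes NME1 and DCTPP1. PPAT, the first committed enzyme of purine synthesis, had 28.7 CPM in members and 19.6 CPM in remaining cells with ETV6-RUNX1, and 31.7 and 22.5 CPM with LUC. TYMS, which makes thymidylate for DNA, was lower, with 222 and 277 CPM with ETV6-RUNX1 and 224 and 292 CPM with LUC.

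Proteasome subunits were higher in both libraries for 11 of 31, against 12.8% of all measured genes, and 0 were lower. PSMD14, the deubiquitinase of the lid, had 115 CPM in members and 82.1 CPM in remaining cells with ETV6-RUNX1, and 110 and 88.0 CPM with LUC. In glycolysis LDHA was called, with 764 and 525 CPM with ETV6-RUNX1 and 746 and 584 CPM with LUC, and so was PGK1, while the other 10 measured genes were not called in both, a share near the 12.8% of all genes. None of 8 cholesterol synthesis genes was called in both. None of 14 genes of the ATF4 amino acid response was higher in both, beside 12.8% of all measured genes. The 2 lower in both, beside 5.12% of all, were VLDLR (-0.78 and -0.52) and DDIT3 (-0.33 and -0.40).

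**Figure D3:**
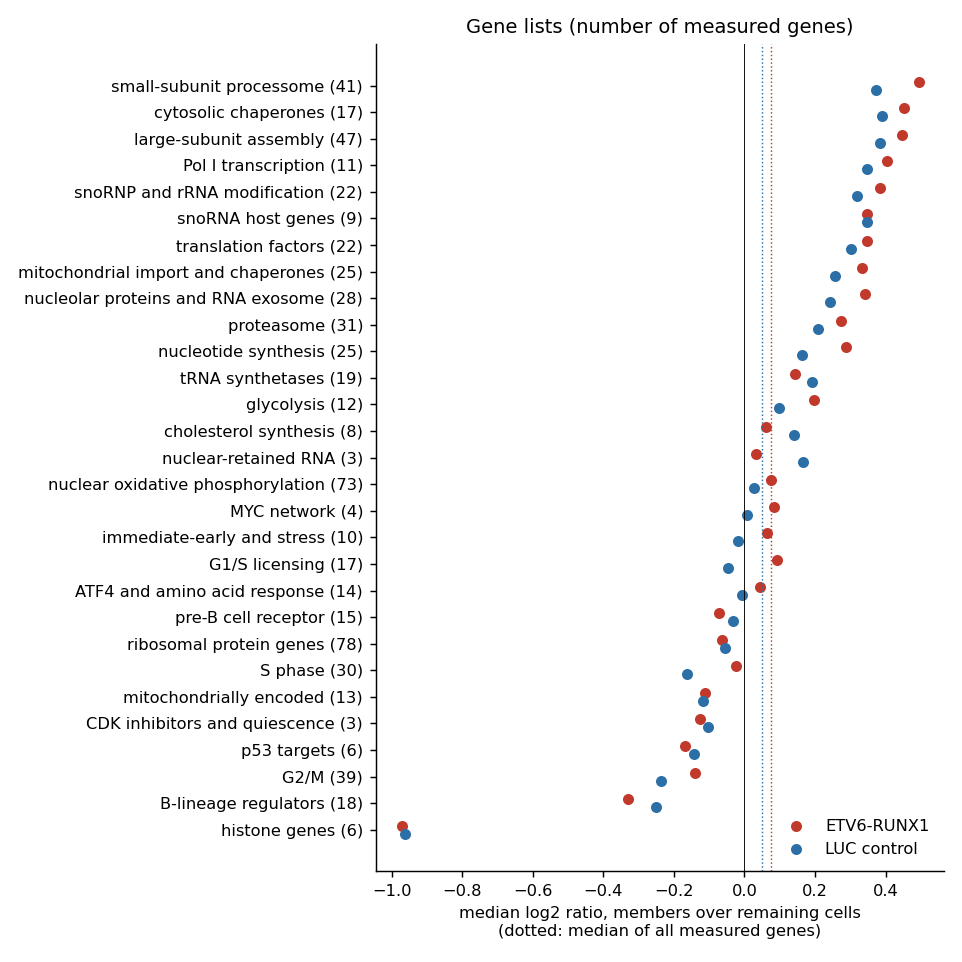
Median log2 ratio of members over remaining cells (horizontal axis) for each gene list with at least 3 measured genes, ETV6-RUNX1 in red above LUC control in blue, with dotted lines at the medians of all measured genes. Small-subunit processome genes, cytosolic chaperones and large-subunit assembly genes stand at the top in both libraries, in different order, and histone genes lowest, at -0.97 and -0.96.

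Replication-dependent histone genes, which cells transcribe in S phase, had the lowest median of the lists with at least 3 measured genes. All 6 measured were lower in both libraries, against 5.12% of all measured genes, and 23 of the 29 listed fell below the floor. HIST1H4C had 2018 CPM in members and 4547 CPM in remaining cells with ETV6-RUNX1, and 1894 and 4648 CPM with LUC, log2 ratios of -1.17 and -1.30. HIST1H1B had 33.5 and 78.3 CPM with ETV6-RUNX1 and 28.6 and 64.7 CPM with LUC. Per cell, the summed histone share had a median of 623 CPM in members and 5369 CPM in remaining cells with ETV6-RUNX1, and 538 and 5140 CPM with LUC. Only 63 of 340 members (18.5%) and 53 of 280 (18.9%) exceeded the median remaining cell. Most histone messages end in a stem-loop and not in a poly(A) tail, so a poly(A) library captures an unknown part of them.

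Genes of mitosis were lower too, by less. Of 39 G2/M genes 15 were lower in both libraries and 3 higher, against 5.12% and 12.8% of all measured genes. MKI67, the proliferation antigen, had 81.3 CPM in members and 130 CPM in remaining cells with ETV6-RUNX1, and 76.7 and 124 CPM with LUC. CDK1, the mitotic kinase, had 38.9 and 60.4 CPM with ETV6-RUNX1 and 43.6 and 73.3 CPM with LUC. In the S-phase list 6 of 30 were lower in both and 2 higher, beside the same 5.12% and 12.8%, with RRM2, the regulated subunit of ribonucleotide reductase, at -0.56 and -0.72. Genes that license replication in late G1 gave no common direction. Of 17 measured, 2 were lower in both and 1 higher, again beside 5.12% and 12.8%. E2F1 (-0.69 and -0.55) and CDT1 (-0.40 and -0.41) were lower and the uracil glycosylase UNG (0.54 and 0.31) was higher. The other 14 were not called in both. Further genes among the 12 lowest were FAM111A, a replication protease, at -0.86 and -0.89, and the helicase PIF1 at -0.74 and -1.19.

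Phase calls, made on cells thinned to 8000 UMIs, put more members in G1. The G1 share was 33.9% of members (exact binomial interval 28.7 to 39.3) and 20.7% of remaining cells (18.8 to 22.7) with ETV6-RUNX1, and 29.8% (24.4 to 35.7) and 18.5% (16.5 to 20.5) with LUC. The G2/M share was 41.3% and 51.7% with ETV6-RUNX1 and 44.5% and 51.3% with LUC. The S share was 24.8% and 27.6% with ETV6-RUNX1, and 25.7% and 30.3% with LUC. On unthinned cells the G1 share was 25% and 17.2% with ETV6-RUNX1 and 21.4% and 13.1% with LUC, and the S share turned to 30.6% and 28.0% with ETV6-RUNX1, so no order is read from S. A cell is called G1 here when both phase scores are low, and the part of free RNA in these scores was not tested.

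The biogenesis difference was present inside every called phase. With ETV6-RUNX1 the median log2 ratio over the 148 genes was 0.41 among G1 cells, 0.37 among S cells and 0.50 among G2/M cells. With LUC the G1, S and G2/M values were 0.28, 0.25 and 0.43. In G2/M cells alone, NOP16 had 231 CPM in members and 118 CPM in remaining cells with ETV6-RUNX1, and 243 and 133 CPM with LUC. The histone decrease was large in G2/M, where the summed log2 ratio was -1.30 in both libraries, and in S, at -0.72 with ETV6-RUNX1 and -0.80 with LUC. In G1 the libraries differed, at -0.11 (-0.17 to -0.05) with ETV6-RUNX1 and -1.24 (-1.32 to -1.15) with LUC, and this difference was not tested. Members called G1 were also not emptied of cycle genes: the summed G2/M genes were 2451 CPM in members and 1936 CPM in remaining cells with ETV6-RUNX1, and 2712 and 2252 CPM with LUC. MYC was higher in S (0.55 with ETV6-RUNX1 and 0.46 with LUC) and in G2/M (0.54 and 0.43). In G1 it was higher with LUC, with 168 and 134 CPM, a ratio of 0.32 (0.12 to 0.53). With ETV6-RUNX1 it was not called in G1, with 115 and 121 CPM, a ratio of -0.07 (-0.29 to 0.14).

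Each library was also divided at the median histone share of its kept cells, an alternative chosen after seeing the data. Members were mostly on the low side: 77.1% of members and 45.2% of remaining cells with ETV6-RUNX1, and 79.3% and 44.8% with LUC. The biogenesis difference was found on both sides. Its median log2 ratio was 0.37 below and 0.45 at or above the histone median with ETV6-RUNX1, and 0.30 and 0.29 with LUC. MXD3 was lower on both sides, at -0.76 and -1.69 with ETV6-RUNX1 and at -0.77 and -1.68 with LUC. The MYC ratio with ETV6-RUNX1 was 0.16 (0.04 to 0.29) below and 0.38 (0.14 to 0.60) at or above the histone median. With LUC it was 0.24 (0.13 to 0.35) below and 0.13 (-0.11 to 0.37) at or above, so MYC passed the 1.2-fold size only on the high side of ETV6-RUNX1.

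Members were the end of a gradient. When the remaining cells of each library were cut into 5 bins of the rule score, the summed biogenesis genes climbed at each step. In ETV6-RUNX1 they had 12520 CPM in the lowest bin, 15183 CPM in the third, 18086 CPM in the fifth and 20102 CPM in members. In LUC the same bins held 13673, 16658, 18760 and 20658 CPM. Histone genes declined at each step, with 6357 CPM in the lowest bin and 2316 CPM in members of ETV6-RUNX1, and 6425 and 2145 CPM in LUC. MYC went up from bin to bin, with 86.4 CPM in the lowest bin and 132 CPM in members of ETV6-RUNX1, and 103 and 172 CPM in LUC. The lowest bins had fewer UMIs per cell, with medians of 16117 UMIs in ETV6-RUNX1 and 19936.5 UMIs in LUC, and a higher mitochondrial share, 4.79% and 4.62%. The part of these differences in the gradient was not tested.

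**Figure D4:**
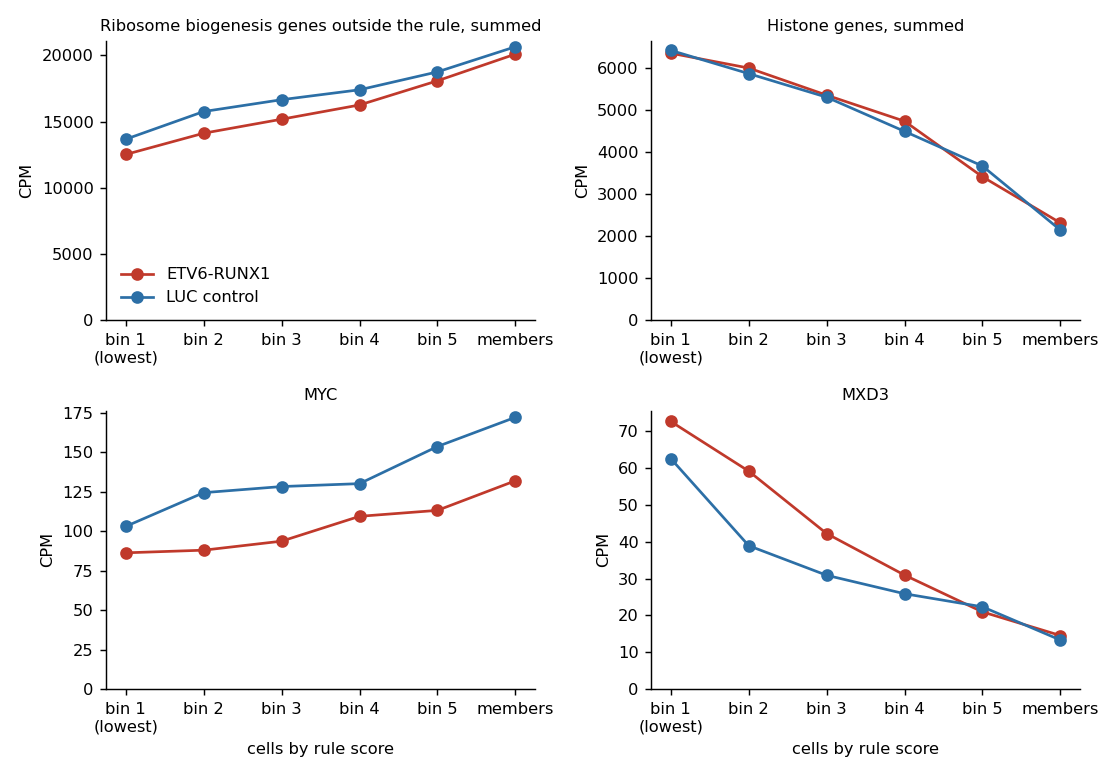
Summed CPM (vertical axes, each starting at 0) of the ribosome biogenesis genes, the histone genes, MYC and MXD3 in 5 bins of remaining cells ordered by the rule score and in members (horizontal axis), for ETV6-RUNX1 in red and LUC control in blue. Biogenesis genes and MYC climb at each step and histone genes and MXD3 decline; MXD3 had 72.6 CPM in the lowest bin and 14.6 CPM in members with ETV6-RUNX1.

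Several of the listed regulators of the B lineage were lower in members. Of 18 measured regulators of the B lineage, 8 were lower in both libraries, against 5.12% of all measured genes, and 0 were higher. PAX5, which commits cells to the lineage, had 81.2 CPM in members and 104 CPM in remaining cells with ETV6-RUNX1, and 74.1 and 91.7 CPM with LUC. EBF1, its partner, had 70.1 and 90.1 CPM with ETV6-RUNX1 and 71.0 and 90.4 CPM with LUC. The other 6 were IKZF1, TCF4, BACH2, ERG, ARPP21 and ID4, with log2 ratios between -0.67 (ID4 with ETV6-RUNX1) and -0.31 (TCF4 and ARPP21 with LUC). The decrease was found in every called phase for the summed list, from -0.50 in G1 to -0.18 in G2/M with ETV6-RUNX1 and from -0.26 to -0.11 with LUC. At or above the histone median the summed ratio in LUC was -0.034 (-0.093 to 0.025), and in ETV6-RUNX1 it was -0.36 (-0.41 to -0.30). It was not uniform over the genes: SOX4 had -0.21 and -0.33, SPI1 -0.03 and -0.06 and MEF2C 0.12 and -0.01, none called in both.

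The pre-B cell receptor signals through surrogate light chains before a light chain is made. Its list, which also holds surface antigens such as CD38 and MME, had medians of -0.07 with ETV6-RUNX1 and -0.03 with LUC. Of 15 measured, 2 were lower in both libraries, CD38 (-0.60 and -0.35) and the kinase SYK (-0.38 and -0.32), against 5.12% of all measured genes, and 0 were higher. MME, the CD10 antigen, was called lower with LUC alone, at -0.23 with ETV6-RUNX1 and -0.34 with LUC. IGLL1, a surrogate light chain, had 1086 CPM in members and 1133 CPM in remaining cells with ETV6-RUNX1, and 1621 and 1902 CPM with LUC. Its partner VPREB1 had 689 and 724 CPM with ETV6-RUNX1 and 975 and 1072 CPM with LUC. The components CD79A and CD79B were not called in either library.

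MALAT1, a nuclear RNA, had 7012 CPM in members and 9872 CPM in remaining cells with ETV6-RUNX1, and 6949 and 9178 CPM with LUC, and was lower in both. The other nuclear RNAs measured did not share this: KCNQ1OT1 was higher in both (0.30 and 0.32) and NEAT1 was not called (0.03 and 0.16). Of 10 immediate-early and stress genes 1 was higher in both, JUN (0.28 and 0.29), which is no more than the 12.8% of all measured genes. Of 6 p53 targets 1 was lower in both, DDB2, beside 5.12% of all. Other genes among the 12 lowest were C21orf58, SYNE2 and ZDHHC12. Markers of other cell types were at or near 0 with 2 exceptions. No marker of T and NK cells (9 listed), myeloid cells (9), erythroid cells and megakaryocytes (7) or stem and progenitor cells (7) was measured, and their sums in the 4 groups of cells lay between 4.56 and 6.55 CPM, between 9.62 and 13.9 CPM, at 0 and between 14.7 and 22.0 CPM. Of the markers of epithelial cells and fibroblasts only PDGFRA was measured, with 42.4 and 72.9 CPM with ETV6-RUNX1 and 50.9 and 69.0 CPM with LUC, and of those of mature B and plasma cells only MZB1, with 223 and 258 CPM with ETV6-RUNX1 and 284 and 358 CPM with LUC.

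Members of the libraries were then compared with each other. Of the fusion's genes, ETV6 had 58 UMIs (8.45 CPM) in members with ETV6-RUNX1 and 33 UMIs (5.37 CPM) with LUC, a log2 ratio of 0.65 (0.01 to 1.32). In the remaining cells it had 388 and 264 UMIs, a ratio of 0.54 (0.31 to 0.77). RUNX1 had 28.1 and 30.9 CPM in members, a ratio of -0.14 (-0.43 to 0.16), and 0.01 (-0.10 to 0.13) in remaining cells. Counts of the fusion were not separated from those of the cells' own ETV6 and RUNX1. At 1.5-fold, 7 of 3816 measured genes (0.183%) were higher and 19 (0.498%) lower in ETV6-RUNX1 members than in LUC members. In the remaining cells 4 (0.105%) were higher and 12 (0.314%) lower. The 2 sets of cells come from the same libraries, so they share whatever sets the libraries apart, and with 1 library each the construct and the library cannot be told apart.

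PTPRCAP, a partner of the CD45 phosphatase, had 39.6 CPM in ETV6-RUNX1 members and 118 CPM in LUC members, a log2 ratio of -1.57 (-1.78 to -1.37), and -1.50 in the remaining cells. It overlaps CORO1B on the same strand. RASGRP2, an exchange factor for RAP1, had 32.2 and 86.3 CPM, a ratio of -1.42 in members and -1.43 in remaining cells. FAM129C, a B-cell protein, had 26.5 and 58.8 CPM, with ratios of -1.15 and -1.29. GNG11, a G-protein gamma subunit, was on the other side, with 68.6 and 33.2 CPM and ratios of 1.05 and 0.84. Of the genes called in members, 1 of the 7 higher and 8 of the 19 lower were also called in the remaining cells. The rest, most of those called in members, were not called in the remaining cells, MNS1 and ACAP2 among them. MNS1, a protein of meiosis and cilia, had 11.9 and 20.8 CPM in members, a ratio of -0.80 (-1.22 to -0.39) against -0.08 in the remaining cells. ACAP2, a GTPase activator for ARF6, had 26.5 and 15.1 CPM, 0.81 (0.44 to 1.19) against 0.24. The values of MNS1 and ACAP2 in members rest on 82 and 128 UMIs and on 182 and 93 UMIs. The difference between members and remaining cells was not tested.

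The ribosome biogenesis genes themselves differed little between libraries once members were taken. Their median log2 ratio of ETV6-RUNX1 over LUC was -0.05 in members and -0.12 in remaining cells, beside -0.02 and -0.05 for all measured genes. Of the 148 genes 90 were below 0 in members and 129 in remaining cells. Choosing the top 15% within each library fixes the same share of cells in both, so that share cannot differ between libraries. It does not fix the level of the score. The thresholds were 882 CPM with ETV6-RUNX1 and 907 CPM with LUC, the member medians 1054 and 1042 CPM, and the remaining-cell medians 462 and 543 CPM. Because members were chosen on this score, no result about the libraries is read from the small difference of the biogenesis genes in members. MYC had a ratio of -0.38 (-0.51 to -0.25) in members and -0.38 (-0.44 to -0.32) in remaining cells. IGLL1 had -0.58 (-0.62 to -0.53) in members and -0.75 (-0.76 to -0.73) in remaining cells.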

How the data were processed

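Single-cell RNA was counted in 2 libraries of Nalm-6 cells, 1 per construct. The authors deposited whole-number UMI counts per gene and cell, made with Cell Ranger 3.0.2 on hg19 per the submitters' processing notes. The libraries held 44311919 UMIs (ETV6-RUNX1) and 43315742 UMIs (LUC control), of which member cells held 6862425 and 6143716.

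Cells, scores and groups followed the rule in the report. UMIs were summed per library and group and scaled to the summed total. Sums over a list in members, remaining cells and score bins took all its genes in the matrices outside the rule. Those within a phase or on 1 side of the histone median took its measured genes only. Intervals of a log2 ratio are exact 95% intervals for a ratio of Poisson sums, and those of shares are exact binomial ones. Both cover counting error only. Phases were called with scanpy 1.11.5 on cells thinned to 8000 UMIs (seed 1), leaving out 18 members and 164 remaining cells of ETV6-RUNX1 and 15 and 57 of LUC control as too shallow. Doublets called by Scrublet stayed in. TMM and median-of-ratios factors came from edgeR 4.0.16, used for scaling only. The interval procedure was run on simulated Poisson counts, which held no spread between cells and no choice of cells. Its coverage with these features was not tested. Genes matched RefSeq promoters (GRCh38.p14) by Ensembl identifier and symbol, and overlaps were read from GENCODE 29. No coordinate of the count files was thus used. Overlaps are given for only some of the named genes that have them.

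Genes named were the rule genes, MYC, ETV6, RUNX1 and IGLL1, the 12 highest and 12 lowest genes by the smaller of the log2 ratios in the 2 libraries, the 3 largest in each list, and the 6 highest and 6 lowest between libraries. Further list members were named after their values were seen. The members and the gene lists were chosen with earlier results of these data known. Of 910 listed symbols 28 were not in the matrices. Some genes of the lists are not reported here.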

Additional observations from a re-analysis of the deposited data

Results flagged for a closer look

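In cells below the median histone share of their library, the summed G2/M genes differed in opposite directions in the 2 libraries. Members had 4329 CPM and remaining cells 4133 CPM with ETV6-RUNX1, a log2 ratio of 0.067 (0.045 to 0.089). With LUC they had 4515 and 4656 CPM, a log2 ratio of -0.044 (-0.066 to -0.022). The difference between libraries was not tested, both sizes are small, and the intervals cover counting error only.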

How the results depend on the processing

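Among the main counts, medians and shares and 257 values of named genes, no alternative setting reversed a called direction. The splits by called phase and by histone share were not part of this check. The 486 genes higher in both libraries became 319 under TMM, 298 when ribosomal protein and mitochondrially encoded genes were left out of the totals, 283 at a floor of 50 CPM, 891 at 1.1-fold, 25 at 1.5-fold and 245 in cells thinned to 8000 UMIs. The 195 lower genes became 64 at 50 CPM, 321 at 1.1-fold, 20 at 1.5-fold and 60 when thinned, while TMM gave 271. The biogenesis median of 0.43 with ETV6-RUNX1 and 0.35 with LUC became 0.36 and 0.30 with TMM, 0.36 and 0.29 without ribosomal protein and mitochondrially encoded genes, 0.39 and 0.29 at 50 CPM, and 0.37 and 0.26 when thinned. Between members of the libraries, the 7 higher and 19 lower genes became 29 and 52 at a floor of 10 CPM, 0 and 6 at 50 CPM, 108 and 219 at 1.2-fold, 1 and 3 at 2-fold, 22 and 32 with the top 10% of cells, 21 and 53 when thinned; the higher ones became 3 with the top 25% and 11 with cells weighted equally. Floors and folds change the counts by construction, and for the others the cause was not tested. Thinning moved 117 of 257 values of named genes, TMM 25 and leaving out Scrublet calls 0. Depth limits low genes, ETV6 among them. No paired analysis was possible because each construct has 1 library.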
